A study of Homo sapiens with 12 samples.

Results

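The kinesin motor genes were taken as every gene of the deposited RNA-seq table whose symbol starts with KIF and a digit, without pseudogenes and without the antisense RNAs KIF9-AS1 and KIF25-AS1. This gave 40 of 27348 genes. One of them, KIF1BP, encodes a kinesin-binding protein and not a motor, so 39 are kinesins. By their best known role, 13 members were called mitotic (KIF2B, KIF2C, KIF4A, KIF4B, KIF11, KIF14, KIF15, KIF18A, KIF18B, KIF20A, KIF20B, KIF22 and KIF23) and 13 transport kinesins (KIF1A, KIF1B, KIF1C, KIF3A, KIF3B, KIF3C, KIF5A, KIF5B, KIF5C, KIF13A, KIF13B, KIF16B and KIF17), and the other 14 act in cilia, microtubule depolymerization or other processes. All 40 could be placed on the gene annotation, among 24317 genes placed in all.

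The data come from K562, a chronic myeloid leukemia cell line, infected with a lentiviral vector and selected with puromycin. Cells carried one of 2 short hairpin RNAs against the long isoform of PHF19 (sh#1 and sh#2, labelled sh1 and sh2) or the empty vector (shCT). RNA-seq was made from 6 libraries, 2 for each of sh#1, sh#2 and shCT, and only the mean over all 6 was used here. ChIP-seq gave 3 peak lists with 1 library each, which are MTF2 in sh#2, MTF2 in shCT and PHF19 in shCT. With 1 library per condition no difference between peak lists has a replicate check. ChIP of PHF19 in the depleted cells and of IgG was not analysed here. The depth of the libraries is unknown, because the values used hold no totals. PHF19 had a mean normalized count of 7798 and MTF2 one of 2797, and the depletion cannot be checked per library from a mean. All 12 erythroid and leukemia markers of K562 were present (GATA1, TAL1, globin and glycophorin genes among them), with mean normalized counts between 4176 and 171752, while the 8 neuronal markers lay between 0 and 31.3, with STMN2 and NEFL at 0, and 1 of 4 markers of ciliated epithelium reached 10. Of the 2 T cell markers, CD3D had a mean of 962 and CD3E one of 13.6.

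Kinesins are motor proteins that turn ATP hydrolysis into movement along microtubules or into loss of subunits from microtubule ends. The mitotic ones build the spindle, align and separate chromosomes and complete cell division, and their genes are transcribed mostly in the G2 and M phases through CCAAT boxes and cell cycle homology regions in their promoters. The transport ones carry vesicles, organelles and protein complexes, and several are best known from neurons. PHF19 and MTF2 are homologous Polycomb-like proteins that bring the complex PRC2, which methylates histone H3 at repressed genes, to chromatin, and MTF2 binds DNA rich in CpG.

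The promoters of members with a PHF19 or MTF2 peak are shown first, as examples of starts with different combinations of peaks within 2.5 kb. KIF1A, a carrier of synaptic vesicle precursors, and KIF26B, which acts in kidney development in mice, had peaks of all 3 lists there. The PHF19 peak of KIF1A lay upstream of the bases shown. KIF13A, an endosome motor, had a PHF19 peak alone. KIF25 had an MTF2 peak over its canonical start in sh#2, while its promoter peaks of the other lists lay at other annotated starts. Each sequence runs from 250 bases before to 50 bases after the start of the canonical transcript on GRCh37, 5′ to 3′ along the gene, with CpG in capitals.
KIF1A, chr2:241759587-241759886, minus strand: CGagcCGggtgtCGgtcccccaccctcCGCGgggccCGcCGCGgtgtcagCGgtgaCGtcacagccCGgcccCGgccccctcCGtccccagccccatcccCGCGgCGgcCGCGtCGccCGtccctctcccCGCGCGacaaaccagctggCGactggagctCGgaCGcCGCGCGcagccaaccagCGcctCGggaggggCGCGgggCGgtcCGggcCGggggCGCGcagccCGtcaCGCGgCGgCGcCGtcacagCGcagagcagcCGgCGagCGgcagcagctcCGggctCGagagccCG
KIF26B, chr1:245318037-245318336, plus strand: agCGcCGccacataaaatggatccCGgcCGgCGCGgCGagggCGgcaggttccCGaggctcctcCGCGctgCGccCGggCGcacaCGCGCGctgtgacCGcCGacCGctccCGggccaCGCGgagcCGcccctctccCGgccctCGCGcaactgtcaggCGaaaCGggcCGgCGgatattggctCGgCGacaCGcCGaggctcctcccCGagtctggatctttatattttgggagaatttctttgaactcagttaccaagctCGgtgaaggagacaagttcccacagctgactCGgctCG
KIF13A, chr6:17987817-17988116, minus strand: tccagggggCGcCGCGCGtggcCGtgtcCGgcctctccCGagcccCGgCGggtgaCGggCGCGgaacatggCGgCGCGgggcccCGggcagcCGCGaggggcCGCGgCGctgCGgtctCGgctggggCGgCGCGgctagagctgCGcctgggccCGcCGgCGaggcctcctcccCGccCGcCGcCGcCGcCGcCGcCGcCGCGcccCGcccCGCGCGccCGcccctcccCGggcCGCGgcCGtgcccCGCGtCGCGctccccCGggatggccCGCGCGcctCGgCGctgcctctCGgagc
KIF25, chr6:168398101-168398400, plus strand: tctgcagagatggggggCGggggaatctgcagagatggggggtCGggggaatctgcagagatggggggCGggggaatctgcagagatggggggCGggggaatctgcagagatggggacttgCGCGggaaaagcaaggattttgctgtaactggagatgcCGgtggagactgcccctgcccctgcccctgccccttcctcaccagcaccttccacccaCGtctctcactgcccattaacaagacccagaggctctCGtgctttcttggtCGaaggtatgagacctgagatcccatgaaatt
These 300 bases held 51 CpG in KIF1A, 39 in KIF26B, 60 in KIF13A and 10 in KIF25, against a median of 20 over 24313 genes with a promoter read. KIF25 is thus poor in CpG where the other 3 are rich.

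The second set shows 5 of the 8 mitotic kinesins whose promoters held both elements marked below, out of 13 in the class. No mitotic member had a peak in any list. Here the capitals mark CCAAT boxes (CCAAT, or ATTGG where it lies on the opposite strand) and cell cycle homology regions (TTTGAA, or TTCAAA on the opposite strand). KIF11 separates the spindle poles, KIF18A dampens chromosome oscillations, KIF23 bundles microtubules at the midzone, and KIF4A is a chromosome-bound motor of which KIF4B is a near-identical copy.
KIF11, chr10:94352637-94352936, plus strand: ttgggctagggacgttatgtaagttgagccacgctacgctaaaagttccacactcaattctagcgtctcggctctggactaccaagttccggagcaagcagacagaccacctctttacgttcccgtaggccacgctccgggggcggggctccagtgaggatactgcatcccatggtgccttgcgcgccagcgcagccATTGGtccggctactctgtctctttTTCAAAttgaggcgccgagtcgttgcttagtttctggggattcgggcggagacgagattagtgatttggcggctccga
KIF18A, chr11:28129654-28129953, minus strand: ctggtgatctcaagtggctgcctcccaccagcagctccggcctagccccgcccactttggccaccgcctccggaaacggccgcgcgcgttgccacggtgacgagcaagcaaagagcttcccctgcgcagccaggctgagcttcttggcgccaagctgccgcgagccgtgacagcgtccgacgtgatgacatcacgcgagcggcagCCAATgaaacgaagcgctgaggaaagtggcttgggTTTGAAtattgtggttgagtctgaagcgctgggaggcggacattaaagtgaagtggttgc
KIF23, chr15:69706438-69706737, plus strand: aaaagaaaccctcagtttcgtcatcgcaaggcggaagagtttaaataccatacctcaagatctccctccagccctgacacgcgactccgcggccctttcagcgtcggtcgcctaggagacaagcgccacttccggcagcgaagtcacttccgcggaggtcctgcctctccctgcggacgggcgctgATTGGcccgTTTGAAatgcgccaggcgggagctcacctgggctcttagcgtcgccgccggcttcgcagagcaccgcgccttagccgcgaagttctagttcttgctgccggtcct
KIF4A, chrX:69509704-69510003, plus strand: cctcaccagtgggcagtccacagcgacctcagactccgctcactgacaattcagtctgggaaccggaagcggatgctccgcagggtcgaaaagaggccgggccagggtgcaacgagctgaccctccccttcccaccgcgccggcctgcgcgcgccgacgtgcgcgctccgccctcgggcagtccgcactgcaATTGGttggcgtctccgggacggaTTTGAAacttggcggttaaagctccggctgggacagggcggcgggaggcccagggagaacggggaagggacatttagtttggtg
KIF4B, chr5:154393065-154393364, plus strand: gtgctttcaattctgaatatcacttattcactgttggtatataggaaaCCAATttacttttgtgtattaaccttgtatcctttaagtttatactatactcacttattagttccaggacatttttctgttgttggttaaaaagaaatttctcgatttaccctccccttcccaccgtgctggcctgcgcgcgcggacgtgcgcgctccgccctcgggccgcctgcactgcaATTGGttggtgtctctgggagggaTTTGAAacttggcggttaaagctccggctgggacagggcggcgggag
In each of the 5 promoters the cell cycle homology region lies downstream of the nearest CCAAT box and near the transcription start. They hold both elements by choice and do not stand for the class. The promoters of KIF2B and KIF2C had no match to either. The KIF4A and KIF4B promoters are not independent examples. With their TTTGAA matches aligned, 136 of the last 150 bases of the KIF4B window were identical, with a longest shared run of 50 bases.

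Most mitotic members had high RNA levels. Levels are compared between genes as the authors' mean normalized count over all 6 libraries, divided here by the kilobases of exon of each gene, and they carry no error because no value per library was used. The median level was 504 per kb for the mitotic kinesins, 79.5 for the transport kinesins and 19.0 for the other members, against 10.2 over all 24317 placed genes. The mitotic median was thus 6.34 times that of the transport class, and the ranges overlapped (0 to 2486 in mitotic and 0.337 to 1623 in transport members). With KIF2A and KIF24 counted as mitotic and KIF21A and KIF21B as transport the ratio was 3.58. In bulk RNA, few cells with much of a transcript and many cells with little cannot be told apart.

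KIF2C, the centromere-associated microtubule depolymerase, had the highest level of the family at 2486 per kb. KIF20A, which carries the chromosomal passenger complex to the midzone, reached 1143 per kb, and KIF11 reached 926. KIF4A had 891 per kb and KIF22, a chromosome arm motor, had 742. These 5 lay among the upper 10% of genes, with ranks between 514 and 2077 of 24317. Below them the mitotic class ran on through KIF14 to KIF18B at 333 per kb. KIF4B had 43.0 per kb, a value that is uncertain because its reads may not be cleanly split from those of KIF4A. KIF2B was listed at 0. It was the single mitotic member with a mean normalized count under 10.

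KIF5B, the ubiquitous conventional kinesin heavy chain, led the transport class with 1623 per kb and was the second most abundant member. KIF1C, which moves vesicles and mRNAs in many cell types, had 402 per kb. KIF1A followed with 267 per kb, from a mean normalized count of 4773, at rank 4981 of 24317. KIF13A had 219.6 per kb and KIF3B, a subunit of the heterotrimeric intraflagellar motor, had 175. KIF1A thus stood near the top of its class, in cells where 6 of 8 neuronal markers had a mean normalized count under 10 and SYT1 and SYN1 had 31.3 and 15.6. The neuron-enriched relative KIF5A had 64.6 per kb, and KIF5C had 0.337 per kb. Whether counting used strand is not stated. Several members overlap a gene on the opposite strand, so their levels may hold its reads. Among coding neighbours these are KIF4A (PDZD11), KIF20A (BRD8 and CDC23), KIF5A (DCTN2), KIF2A (DIMT1), KIF7 (TICRR), KIF9 (KLHL18) and KIF24 (UBAP1), and others overlap noncoding genes, pseudogenes or genes without a symbol.

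A mean normalized count of 10 or more was found for 32 of the 40 members, which were 12 of 13 mitotic, 12 of 13 transport and 8 of 14 other members, against 14027 of 24317 genes. The 8 below it were KIF2B, KIF6 and KIF12, all listed at 0, and KIF26A (0.367), KIF25 (1.03), KIF5C (3.10), KIF19 (6.72) and KIF26B (7.39). Among the 14 other members, KIF2A, a spindle pole and neuronal depolymerase, was the highest with 526 per kb.

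**Figure D1:**
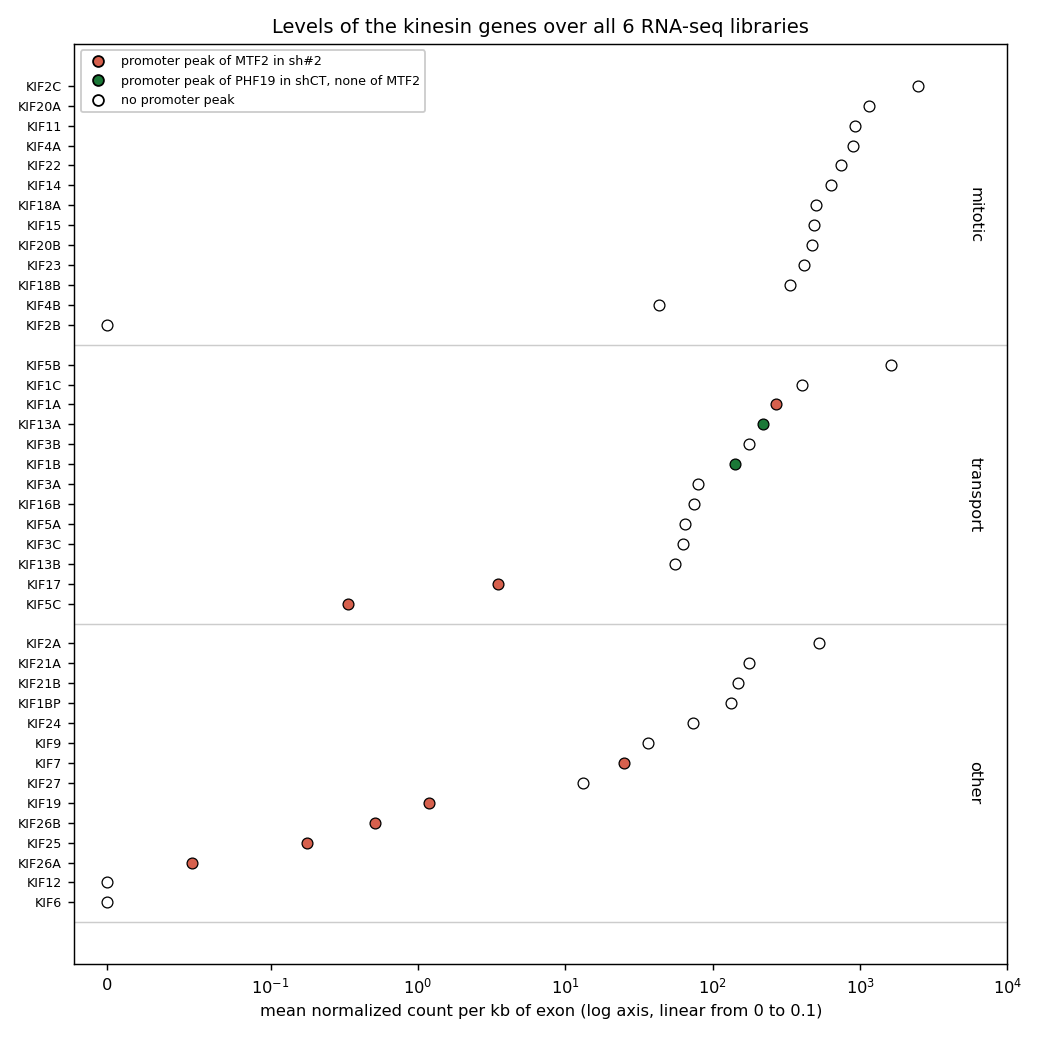
Mean normalized count per kb of exon for each of the 40 members (log axis, linear from 0 to 0.1), ordered within the mitotic, transport and other classes. Each point is 1 gene, coloured by its promoter peak. KIF2C is the highest at 2486 per kb, no mitotic gene is coloured, and KIF1A at 267 per kb is the highest member with an MTF2 promoter peak.

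The peak lists were then laid over the members. A gene region ran from 2.5 kb upstream of any annotated transcription start to the transcript end, and a promoter reached 2.5 kb to either side of any start. Any overlap of 1 bp counted. The PHF19 list was used as deposited, with 5621 peaks, without the minimum of tags per peak that the study applied, because the list holds no tags. The family was selected on the deposited expression table together with these peaks, so the counts describe it and were not tested. In shCT cells, 6 of 40 members had a PHF19 promoter peak (KIF1A, KIF1B, KIF13A, KIF19, KIF25 and KIF26B), where 7.85% of all placed genes had one. With peaks at or above the median score of the list the count was 3 (KIF1A, KIF1B and KIF26B), where 4.85% of all genes had one. MTF2 promoter peaks lay at 8 members in sh#2 cells (KIF1A, KIF5C, KIF7, KIF17, KIF19, KIF25, KIF26A and KIF26B), where 15.6% of all genes had one, and at 7 members in shCT cells (these genes without KIF5C), where 11.1% of all genes had one. A promoter peak of all 3 lists was present at 4 members, KIF1A, KIF19, KIF25 and KIF26B, against 4.79% of all genes. The PHF19 peaks of KIF19 and KIF25 scored at most 62.39, below the median of 72.28 in that list. Within 2.5 kb of the canonical start alone, 8 members had an MTF2 peak in sh#2 cells, 5 had one in shCT cells and 5 had a PHF19 peak, against 13.2%, 8.9% and 6.41% of all genes. Over the whole family each of these counts is within a few genes of the background.

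None of the 13 mitotic members had a peak of any list in the promoter or elsewhere in the gene. The alternative settings only narrowed the windows or the peaks kept, so they had to give 0 as well and are no further check. Of these 13 genes, 11 had a mean normalized count of 1000 or more, a level at which 3.02% of all genes had an MTF2 promoter peak in sh#2 cells, 2.08% had one in shCT cells and 5.8% had a PHF19 promoter peak, so a count of 0 is near the share at their level. Among the transport kinesins 5 of 13 had a promoter peak of at least 1 list (KIF1A, KIF1B, KIF5C, KIF13A and KIF17), as had 5 of 14 other members, against 18.6% of all genes. In the gene region KIF6 joined them with 2 MTF2 peaks in sh#2 cells, which made 11 members, against 21.7% of all genes. By list, 9 members had an MTF2 peak in the region in sh#2 cells, 7 had one in shCT cells and 6 had a PHF19 peak, against 18.0%, 13.5% and 10.2% of all genes. All 3 lists met in the region of the same 4 members as in the promoters, against 6.38% of all genes. Mitotic genes were shorter, with a median of 34.2 kb, against 57.4 kb for transport kinesins, 55.1 kb for other members and 21.9 kb for all genes, and the part of length in the counts was not tested.

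MTF2 promoter peaks lay mostly at members of low level, as at all genes. The 8 members with an MTF2 promoter peak in sh#2 cells had a median level of 0.852 per kb, against 175 per kb for the 32 members without. Over all placed genes the medians were 0.651 per kb for 3792 genes with such a peak and 26.3 per kb for 20525 genes without. Of the 8 members with a mean normalized count under 10, 5 had an MTF2 promoter peak in sh#2 cells and 4 in shCT cells, where 22.9% and 16.0% of all genes at that level had one, and 3 had a PHF19 promoter peak, where 7.45% had one. Of the 20 members with a mean of 1000 or more, KIF1A alone had an MTF2 promoter peak, in sh#2 and in shCT cells, where 3.02% and 2.08% of genes at that level had one. PHF19 promoter peaks lay at 3 of those 20 members (KIF1A, KIF1B and KIF13A), where 5.8% of genes at that level had one. The 1 member with a mean from 10 to 100, KIF17 (15.5), had an MTF2 promoter peak in sh#2 and in shCT cells, where 24.4% and 18.3% of genes at that level had one, and no PHF19 peak, where 13.3% had one. Of the 11 members from 100 to 1000, KIF7 (135) alone had an MTF2 promoter peak in sh#2 and in shCT cells, where 10.0% and 7.07% of genes had one, and 0 had a PHF19 peak, where 7.63% had one.

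**Figure D2:**
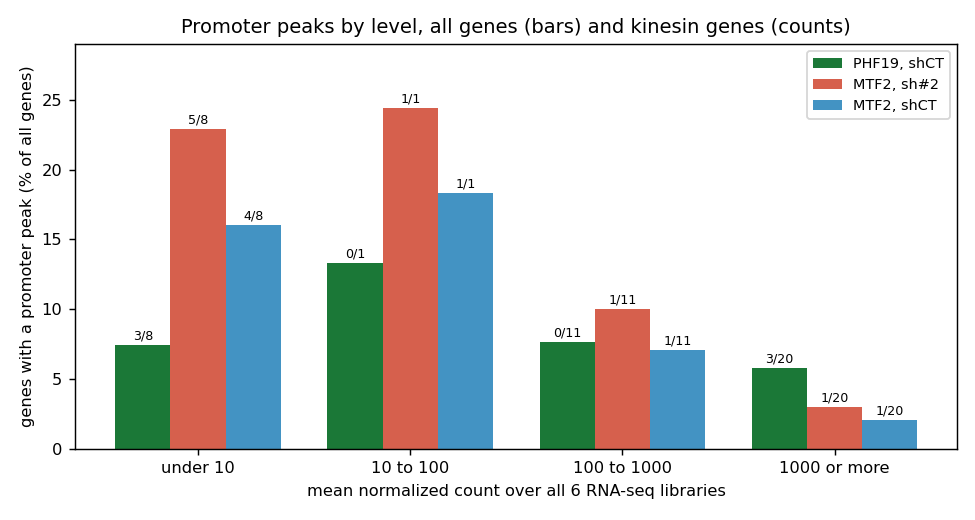
Share of all placed genes with a promoter peak (%, bars) by mean normalized count over the 6 RNA-seq libraries, for each peak list, with the number of members with a peak out of the members at that level above each bar. The MTF2 bars drop to 3.02% (sh#2) and 2.08% (shCT) at a mean of at least 1000, where 1 of 20 members, KIF1A, had such a peak.

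KIF1A had peaks of all 3 lists within 2.5 kb of its canonical start and further within the gene. It lies at chr2:241653178-241763710 on the minus strand of GRCh37 and has 52 annotated transcripts, so many windows count as its promoter, but a peak of each list also lay within 2.5 kb of the canonical start. In sh#2 cells, 7 MTF2 peaks covered 34100 bp of the region, with a best score of 1027.38 at rank 437 of 18287. In shCT cells, 8 MTF2 peaks covered 21811 bp, with a best score of 321.66 at rank 1096 of 12502. The score is the number written after each peak's name, taken here from its form as the score of the peak caller, with higher values as stronger peaks, since no source used here defines it. It starts at 50 in each list and is compared only by rank within a list. PHF19 in shCT cells had 3 peaks over 7914 bp, with a best score of 206.17 at rank 385 of 5621.

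At the canonical start an MTF2 peak of 8924 bp stretched from position -5858 to position 3065 relative to the start in sh#2 cells. In shCT cells the same stretch held a peak of 2632 bp over the start and another of 2582 bp further upstream. The PHF19 peak of 2477 bp ran from position -2976 to position -500, so it did not cover the start. Its score was 79.28, at rank 2347 of 5621. All of this peak lay under the MTF2 peak of sh#2 cells, and 1200 bp of it under an MTF2 peak of shCT cells. A further domain lay over exon 2. There the MTF2 peak was 8949 bp wide in sh#2 cells (positions 18970 to 27918) and 7174 bp wide in shCT cells (positions 19131 to 26304), and the PHF19 peak of highest score in the gene, 4559 bp wide, shared 4539 bp and 4378 bp with them. The small PHF19 peak of 878 bp between both domains overlapped an MTF2 peak of shCT cells but none of sh#2 cells.

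Among the 6258 genes at or above a mean of 1000, KIF1A had rank 5 by bp under MTF2 peaks in sh#2 cells (of 253 genes with any) and rank 4 in shCT cells (of 183 genes with any), and rank 14 by bp under PHF19 peaks (of 449 genes with any). Among these genes the widest cover in all 3 lists was that of IQSEC1. Total bp is not scaled by the length of a gene, which is 110.5 kb for KIF1A, and the part of length was not tested. The members whose bp over the 3 lists were most like those of KIF1A were KIF25, KIF26B and KIF19, with distances of 0.394, 0.901 and 0.982 on the log10 scale. All 3 had a mean normalized count under 10, where KIF1A had 4773.

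KIF26B carried the widest cover of the family, in a gene of 554 kb. In sh#2 cells 46 MTF2 peaks covered 162068 bp, and in shCT cells 36 peaks covered 76328 bp. The MTF2 peak over its start was 6645 bp wide with a score of 2894.12 in sh#2 cells, at rank 17 of 18287, and 4753 bp wide with a score of 985.67 in shCT cells, at rank 103 of 12502. The PHF19 peak there, 6628 bp wide, had a score of 373.18 at rank 90 of 5621 and shared 6613 bp and 4753 bp with these MTF2 peaks. These are the highest ranks of any member in each list. The other 4 PHF19 peaks of KIF26B lay in introns, with scores from 50.43 to 61.30, and each overlapped an MTF2 peak of sh#2 cells.

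**Figure D3:**
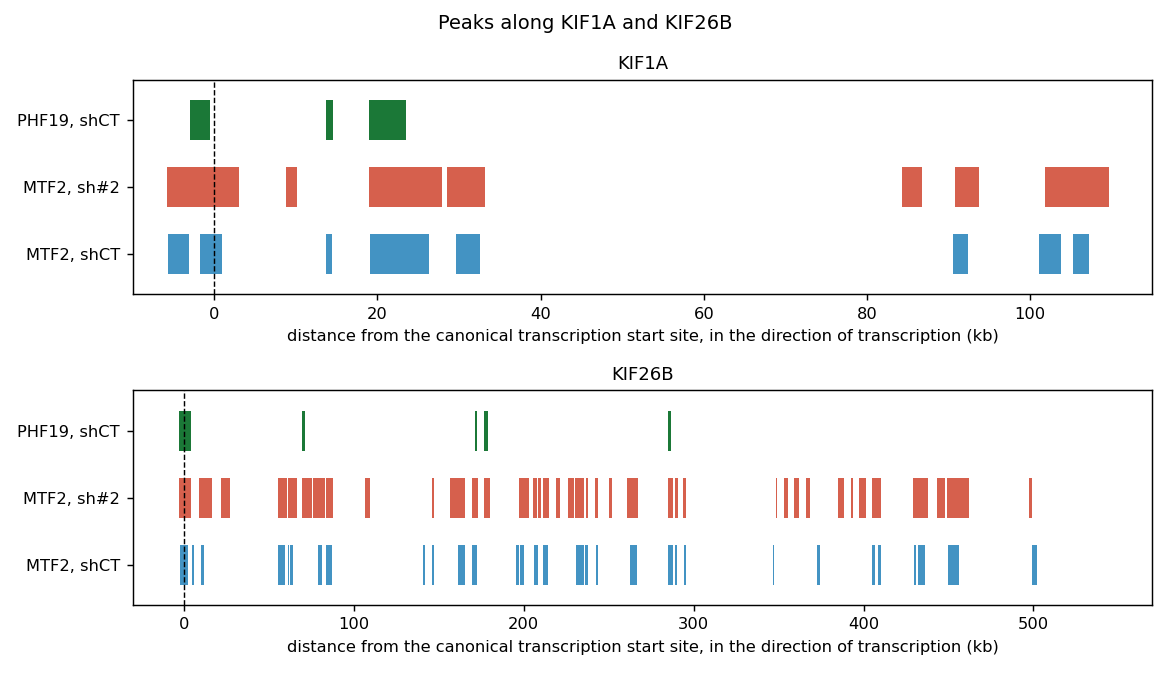
Peaks along KIF1A (upper panel) and KIF26B (lower panel) as blocks, by distance from the canonical transcription start in the direction of transcription (kb), for PHF19 in shCT, MTF2 in sh#2 and MTF2 in shCT. At KIF1A the 8924 bp MTF2 peak of sh#2 spans the start (dashed line), and at KIF26B 46 MTF2 peaks of sh#2 and 36 of shCT run along the gene.

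Of the other members under MTF2 peaks in both lists, KIF19, KIF25, KIF26A and KIF17 had levels below the median of all genes (10.2 per kb), and KIF7 lay above it with 24.9 per kb. KIF19, a depolymerase of motile cilia, had MTF2 peaks over 21610 bp in sh#2 cells and 16033 bp in shCT cells, which is 67.3% and 49.9% of its region. Its best score ranked lower in sh#2 cells (447.11, rank 1982) than in shCT cells (632.71, rank 300), and its PHF19 peak of 881 bp lay wholly within the MTF2 peaks at the start. KIF25, a little studied kinesin, had 22528 bp in sh#2 cells and 13183 bp in shCT cells, and its PHF19 peaks lay at alternative starts, between 18921 and 24435 bp downstream of the canonical one. KIF26A, which acts in enteric neuron development in mice, had 24949 bp in sh#2 cells and 4780 bp in shCT cells. A peak of 11623 bp over exons 6 to 15 of KIF26A had a score of 1437.78 in sh#2 cells (rank 194), and the best score of the gene was 142.39 in shCT cells (rank 3364). KIF17, a motor of dendrites and cilia, had 9699 bp in sh#2 cells and 3584 bp in shCT cells. KIF7, the Hedgehog pathway kinesin of the primary cilium, had 3477 bp in sh#2 cells and 2311 bp in shCT cells. Of its 2 peaks in each list, one covered the canonical start and the other also lay at the promoter of the neighbouring gene PLIN1.

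MTF2 peaks covered more bp in sh#2 than in shCT cells at each of the 7 members with peaks in both lists, with ratios from 1.35 (KIF19) through 1.505 (KIF7), 1.56 (KIF1A), 1.71 (KIF25), 2.12 (KIF26B) and 2.71 (KIF17) to 5.22 (KIF26A). Across the 3060 placed genes with peaks in both lists the median ratio was 1.80 and the central 80% ran from 1.02 to 4.75, with 91.3% above 1. The members thus lay within this central 80%, except that KIF26A was above its upper end of 4.75, as some genes are by definition. The whole sh#2 list had 18287 peaks over 63.2 Mb, against 12502 peaks over 29.05 Mb in shCT. Depth and immunoprecipitation efficiency of the libraries cannot be told apart from the condition, since each condition is 1 library.

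A promoter peak of MTF2 in sh#2 cells with none in shCT cells was found at KIF5C alone, against 5.17% of all genes, and the reverse at 0 members, against 0.683% of all genes. The KIF5C peak had a score of 50.38, at rank 18186 of 18287, just above the lowest score that the list holds. The count of 1 became 2 with peaks at or above the median score (4.04% of all genes) and 2 with protein-coding transcripts only (4.25%). Within 2.5 kb of the canonical start alone it was 3 (KIF5C, KIF17 and KIF25), against 4.84% of all genes. The promoter peaks of KIF17 and KIF25 in shCT cells lay at other annotated starts. The MTF2 peaks of sh#2 cells near the canonical start of KIF25 also lay at the promoter of the antisense RNA KIF25-AS1. KIF6, a ciliary kinesin whose RNA was listed at 0, had MTF2 peaks over 5104 bp in sh#2 cells and none in shCT cells, so that 2 members had a region peak in sh#2 cells alone and 0 in shCT cells alone, against 5.47% and 0.913% of all genes. Conversely, the PHF19 peaks of KIF13A (823 bp over the start, score 62.12) and of KIF1B, a mitochondrial and synaptic vesicle motor (963 bp, from position -1012 to position -50, score 80.34), shared 0 bp with either MTF2 list.

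**Figure D4:**
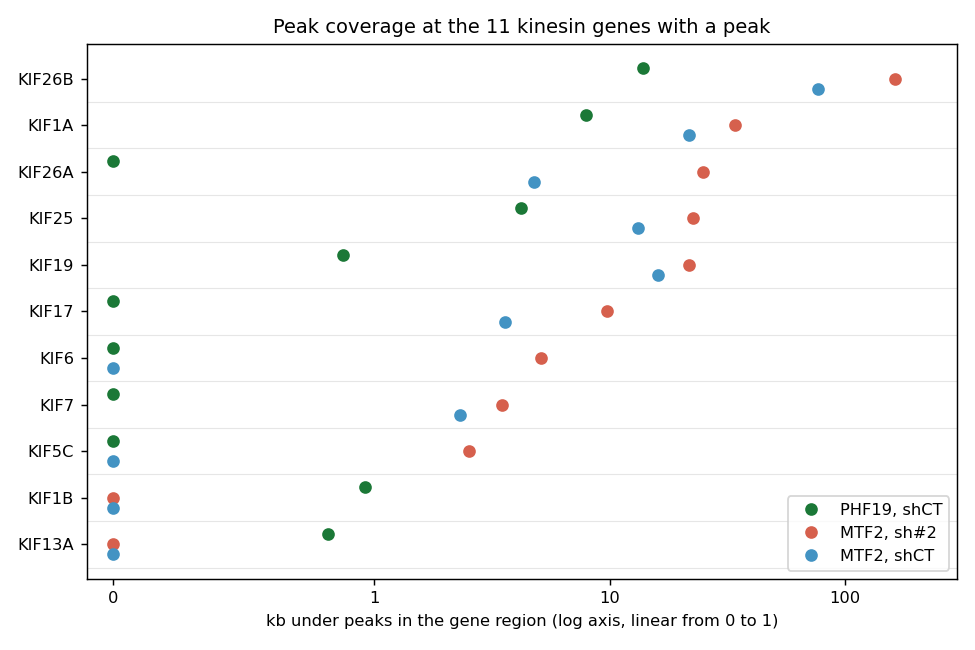
Length under peaks (kb, log axis, linear from 0 to 1) in the region of the 11 members with a peak, for PHF19 in shCT, MTF2 in sh#2 and MTF2 in shCT. The MTF2 points of sh#2 lie to the right of those of shCT at 9 members, with the largest ratio at KIF26A, and KIF13A and KIF1B have PHF19 cover alone.

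Promoter sequence was not used to choose the members, but CCAAT and TTTGAA were searched because they are known elements of mitotic promoters. Both were more frequent in the mitotic class, whose counts include KIF4A and KIF4B, which are not independent examples. CCAAT was found on either strand in 10 of 13 mitotic, 4 of 13 transport and 6 of 14 other promoters, against 35.7% of 24313 promoters of the same length. TTTGAA was found in 9 of 13 mitotic, 1 of 13 transport and 1 of 14 other promoters, against 13.1% of all. Both stood in 8 mitotic promoters (KIF4A, KIF4B, KIF11, KIF14, KIF18A, KIF18B, KIF20B and KIF23), in 1 transport promoter (KIF5B) and in 1 other (KIF26B), against 5.43% of all. The motifs did not overlap in any member. In all 8 mitotic promoters TTTGAA began downstream of the nearest CCAAT, by 9 to 122 bases with a median of 24, and in KIF5B it began 81 bases upstream. The median GC content was 62% in mitotic, 70.7% in transport and 61.7% in all promoters, and its part in the counts was not tested. A match is a run of letters and not a shown binding site. Only the exact run TTTGAA was searched for the cell cycle homology region, so a promoter without a match may hold the element in another form.

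**Figure D5:**
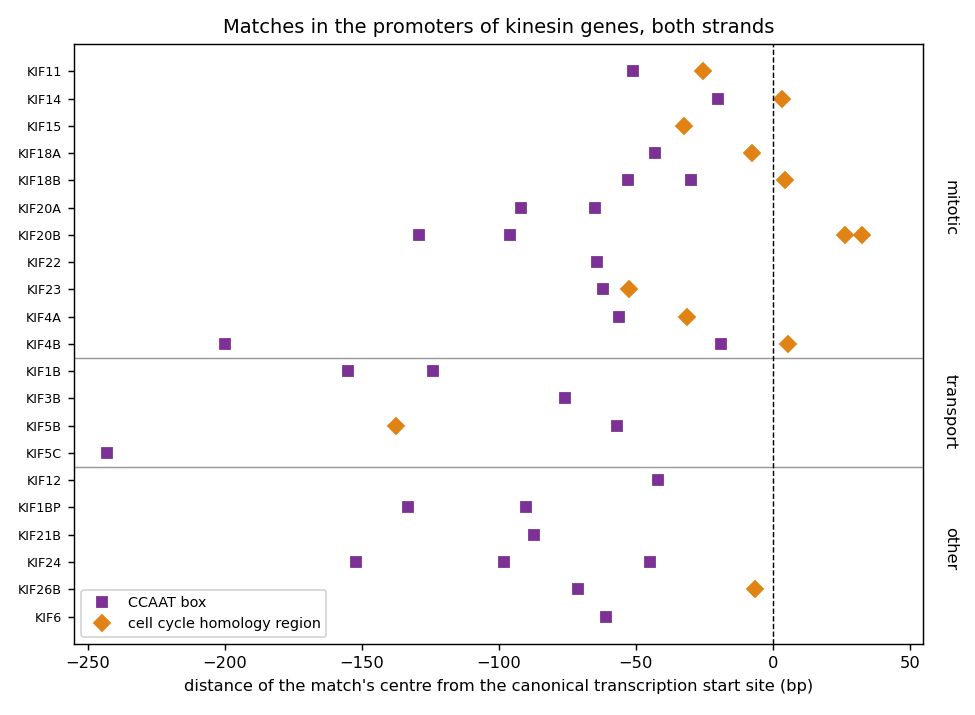
Matches to CCAAT (squares) and TTTGAA (diamonds) on either strand, by distance of the match's centre from the canonical transcription start (bp), in the members with a match. 11 mitotic promoters hold a match, and in the 8 with both the diamond lies to the right of the nearest square.

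The core of the site of REST, a repressor of neuronal genes, was in 0 member promoters and in 14 of all 24313 promoters (0.0576%) on either strand. The median ratio of observed to expected CpG was 0.926 in mitotic, 0.886 in transport and 0.853 in other promoters, against 0.718 in all. Members with an MTF2 promoter peak in sh#2 cells had a median of 0.939, against 0.892 in members without, a difference of 0.0466. Over all placed genes the median was likewise higher with such a peak, at 0.746 against 0.711 without. With peaks at or above the median score alone the difference between members was 0.139. The middle 300 bases of peaks at members held a median of 5.0 CpG in MTF2 peaks of sh#2 cells, 7.0 in MTF2 peaks of shCT cells and 5.0 in PHF19 peaks, against 6.0, 7.0 and 5.0 over all peaks of these lists.

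Partners of the kinesins were read from a list of 28 genes, which holds kinesins with other names, kinesin light chains, adaptors, dynein and dynactin subunits and proteins of the spindle midzone. The mean normalized count reached 10 for 27 of them. The mitotic partners TPX2, PRC1, AURKB, INCENP, CDCA8, BIRC5, KIFC1 and CENPE had between 531 and 4020 counts per kb and no promoter peak. All of these had a mean of 1000 or more. At that level 5.8% of all genes had a PHF19 promoter peak, and 3.02% (sh#2) and 2.08% (shCT) an MTF2 one. PHF19 promoter peaks lay at 2 of the 28 partners, where 7.85% of all genes had one. They were KLC4, a kinesin light chain, and DYNC1LI2, a dynein light intermediate chain. MTF2 promoter peaks lay at 3 partners in sh#2 cells (KIFC3, KLC4 and DYNC1I1), where 15.6% of all genes had one. In shCT cells they lay at 2 (KIFC3 and DYNC1I1), where 11.1% of all genes had one. DYNC1I1, the neuronal intermediate chain of dynein, was the one partner below a mean of 10, with 6.77.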

How the data were processed

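K562 cells were measured by RNA-seq (6 libraries) and ChIP-seq (6 libraries, 1 per condition), and samples were grouped by their labels. The authors aligned RNA-seq reads to hg19 with TopHat, keeping reads with 1 location, counted them over RefSeq exons and ran DESeq2. The deposited table gives each gene 1 score, its normalized count averaged over all 6 libraries, which was used as the authors' mean, and the fold changes, statistics and p-values of their comparison, which were not used. ChIP-seq reads were mapped by the authors to hg19 and dm3 with Bowtie, and peaks were called with MACS. The deposited peak lists give positions and a score for each peak, which is not scaled by the spike-in. The header of the PHF19 list names, beside the control cells, the same hairpin as the header of the MTF2 list of sh#2, so which library was the control of that call is unclear. The study kept PHF19 peaks above a minimum of tags, which could not be applied here. For these tools, versions were not given in the sources used here.

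Genes were placed by GENCODE 44 on GRCh37, the assembly of hg19, whereas the authors used RefSeq. Of 27348 symbols 24317 were placed, 1060 of them by an older symbol. Windows, overlaps, levels per kb and motif matches were computed in Python 3.11.15 with numpy 2.4.6 and pandas 2.3.3, figures with matplotlib 3.10.9, and the overlap step was tested on simulated data. Named members were those with a promoter peak or a PHF19 peak, the 5 highest per kb of the mitotic and transport classes, those with a mean under 10, KIF1A and the 3 most like it by the distance of log10(bp + 1). Other members were named as examples after their values were seen. Members, classes, lists and motifs were chosen with earlier results of these data known. Alternatives were other windows, overlaps, score limits, transcript sets, lengths and classes. No value per library was used, so no test was made and precision is unknown.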

Additional observations from a re-analysis of the deposited data

How the results depend on the processing

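Of 43 alternative values, 36 stayed within 1.5 times the reported value and 7 did not. With peaks at or above the median score of each list, 3 members in place of 6 had a PHF19 peak in the gene region (6.05% in place of 10.2% of all genes), and 3 in place of 6 had one in the promoter (4.85% in place of 7.85%). Members with an MTF2 promoter peak in sh#2 cells and none in shCT cells numbered 2 with that score limit (4.04% of all genes), 2 with protein-coding transcripts only (4.25%) and 3 within 2.5 kb of the canonical start alone (4.84%), in place of 1 (5.17%; the canonical start was added after seeing the data). The ratio of mitotic to transport median levels was 3.58 with KIF2A and KIF24 as mitotic and KIF21A and KIF21B as transport, in place of 6.34. The difference in median promoter CpG ratio between members with and without an MTF2 promoter peak in sh#2 cells was 0.139 with the score limit, in place of 0.0466. The cause was not tested. No paired analysis was possible because only a mean over the RNA-seq libraries was used and each ChIP-seq condition is 1 library, and for the same reason no replicate could be left out. The depth of the libraries is unknown, so a gene without a peak is one where none was called.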
